A study of Drosophila melanogaster with 7 samples.

Results

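The genes described here encode the machinery of pre-mRNA splicing and RNA processing in Drosophila melanogaster, followed in whole embryos that lack the transcription factor Lola. A list of 49 such genes was matched by symbol to the annotation of a spotted cDNA array, and 38 of them were measured by at least 1 clone assigned to 1 gene only, out of 7583 genes measured in all. The mutant embryos, on a w1118 background, carried lolaORE76 with sca-GAL4 on one chromosome and lolaORE76 with UAS-tau-eGFP on its homologue, and so were homozygous for a lola allele with a stop codon in the region common to all Lola isoforms. The control embryos were w1118; sca-GAL4/UAS-tau-eGFP, so both groups carried the w1118 background, the sca-GAL4 driver and a tau-eGFP reporter, and both were hand-sorted by green fluorescence in the central nervous system before they reached the age of 10 to 12 hours at which RNA was taken. Each of 7 arrays compared 1 mutant with 1 control RNA sample, each from about 300 embryos and collected side by side, with the mutant RNA in Cy5 on arrays 1, 3 and 6 and in Cy3 on arrays 2, 4, 5 and 7. The embryo also receives Lola from its mother, which may limit the mutants as a model of full loss and was not measured here. Both mutant chromosomes were built with the same lola allele. The authors could therefore not exclude effects of modifier loci on the lola chromosome.

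Splicing removes introns from newly made transcripts. The small nuclear ribonucleoprotein particles (snRNPs) of the spliceosome each hold an RNA surrounded by a ring of Sm proteins, and they recognise the ends of the intron and the branch point between them. SR proteins and hnRNP proteins bind along the transcript and favour or hinder the use of single exons, other proteins choose exons in particular tissues, and the cap binding complex, the exon junction complex and the cleavage and polyadenylation factors act at the ends of the transcript and at finished exon junctions. Alternative splicing is widespread in the fly nervous system, and lola itself makes its many isoforms by it.

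Values are log2 ratios of lola mutant over control, so 0 means equal signal. The deposited table does not name the numerator, and every sign was turned because the deposited signs run opposite to those of a published list from the same arrays. The direction mutant over control is therefore likely, not stated. A gene was called when limma's moderated test of the mean of the 7 arrays against 0 gave a Benjamini-Hochberg adjusted p under 0.05 over all 7583 genes, and every adjusted p below is from that fit. Of the 38 genes, 1 was called as risen (heph) and 3 as fallen (SmB, SmD3 and tsu), 4 in all, against 5.59% of all genes called in either direction, 3.24% as risen and 2.35% as fallen. The genes called were few and the changes small: the means ran between -0.41 and 0.39, and the median of the 38 was -0.06, against -0.02 over all genes. Below 0 lay 27 of the 38 means, against 55.1% of all genes. Because whole embryos were used, fewer cells of a type and less RNA per cell cannot be told apart in any of these ratios.

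**Figure D1:**
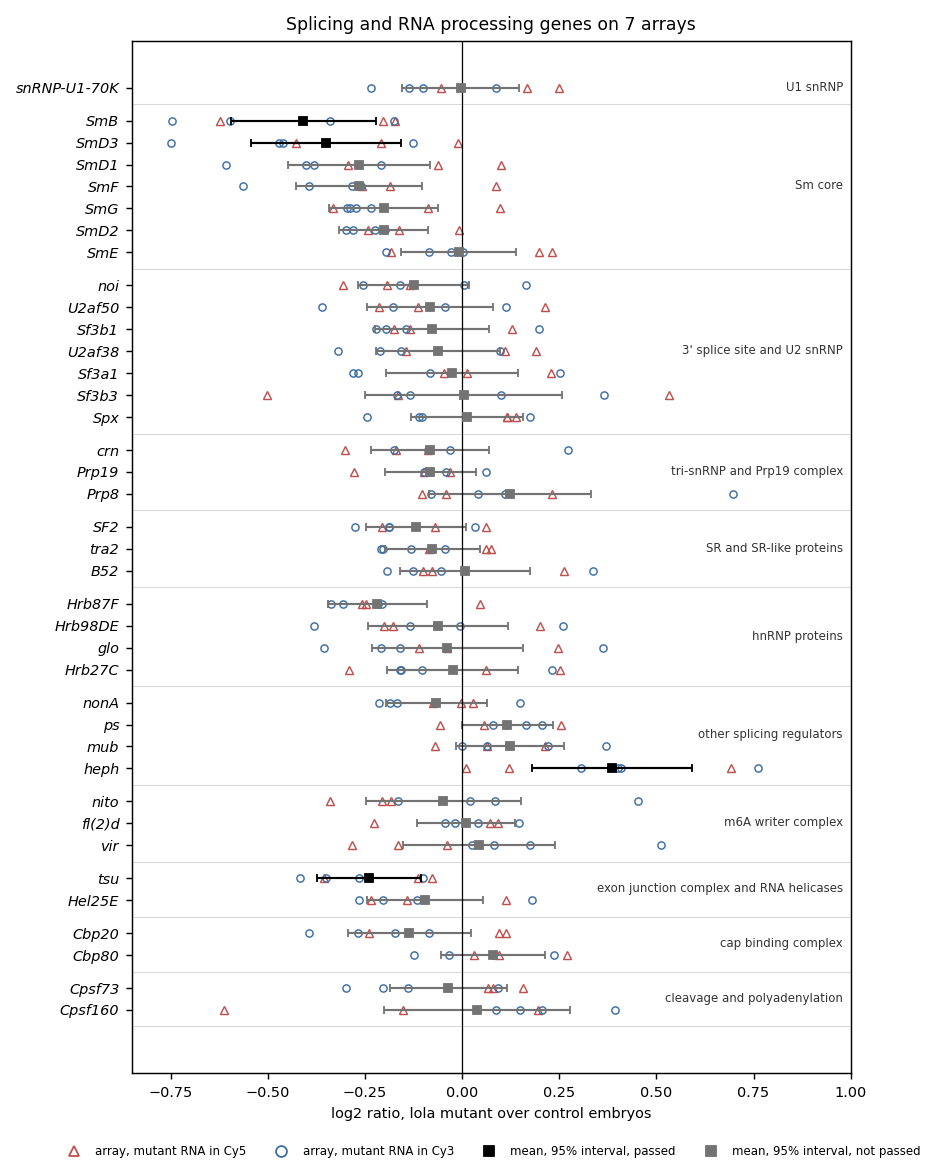
Log2 ratio of lola mutant over control embryos (horizontal axis) for the 38 measured genes, grouped by role. Triangles are arrays with mutant RNA in Cy5, circles arrays with mutant RNA in Cy3, squares means of 7 arrays with the 95% confidence interval of the limma fit, in black where the gene passed. SmB, SmD3 and tsu lie below 0 on all 7 arrays and heph above 0 on all 7, and SmE is the Sm gene nearest 0.

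The Sm core stood lowest among the groups of this machinery. Its 7 genes encode the proteins that form the ring common to most spliceosomal snRNPs, and all 7 were measured. Their median was -0.27, and all 7 means lay below 0, against 55.1% of all genes. Of the 7, 2 were called, both as fallen, against 2.35% of all genes called as fallen. At an unadjusted p under 0.05, 6 of the 7 were lower, against 9.71% of all genes that were lower at that level, and the exception was SmE.

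SmB, the fly counterpart of mammalian SNRPB, had log2 ratios of -0.20, -0.60, -0.62, -0.75, -0.34, -0.17 and -0.18 on arrays 1 to 7. All 7 arrays were below 0, with the deepest values on arrays 2, 3 and 4. The mean was -0.41 ± 0.24 (SD, n = 7 arrays; 95% confidence interval -0.60 to -0.22), a level 1.33-fold lower in lola mutant than in control embryos (adjusted p = 0.0226). Of all 7583 genes, 109 had a lower mean.

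SmD3 showed the same outline, with -0.01, -0.47, -0.43, -0.75, -0.46, -0.21 and -0.13 on the 7 arrays in the same order. Array 1 was close to 0 and array 4 far below the rest. Its mean was -0.35 ± 0.25 (95% confidence interval -0.54 to -0.16; adjusted p = 0.0453), or 1.28-fold lower in the mutant.

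Among the other Sm genes, none passed. SmD1 had 0.10, -0.38, -0.29, -0.61, -0.40, -0.06 and -0.21, a mean of -0.27 ± 0.23 (adjusted p = 0.0972). SmF had 0.09, -0.28, -0.26, -0.56, -0.26, -0.18 and -0.39, a mean of -0.27 ± 0.20 (adjusted p = 0.0689). Both were above 0 on array 1 alone and lowest on array 4. SmD2 had -0.16, -0.28, -0.24, -0.22, -0.30, -0.01 and -0.20, and its mean of -0.20 ± 0.10 (adjusted p = 0.0533) came with the smallest SD among the 38 genes. SmG (SNRPG in the RefSeq gene table) was represented by 2 clones, with means of -0.19 for RE61341 and -0.22 for RH35475, and together they averaged -0.20 ± 0.15 (adjusted p = 0.0985). The 2 clones kept within 0.149 of each other on every array. SmE had 0.23, 0.00, -0.18, -0.03, -0.09, 0.20 and -0.20, values on both sides of 0, with a mean of -0.01 ± 0.17 (adjusted p = 0.957) and a 95% confidence interval of -0.16 to 0.14.

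Of the U1 snRNP, the particle that recognises the start of the intron, only snRNP-U1-70K was measured. Its values were 0.25, -0.10, -0.06, -0.23, -0.14, 0.17 and 0.09, with a mean of 0.00 ± 0.17 (adjusted p = 0.983). Clones of snf and snRNP-U1-C were not among those measured.

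The genes for recognition of the end of the intron were nearer 0 than the Sm genes. This group holds both subunits of U2AF, which binds the polypyrimidine tract and the splice site after it, and proteins of the U2 snRNP subcomplexes that bind at the branch point, and all 7 were measured. None was called, 5 means were below 0 and the median was -0.06. The lowest was noi, the fly counterpart of an SF3a subunit, at -0.13, -0.16, -0.31, -0.25, 0.01, -0.19 and 0.16, a mean of -0.13 ± 0.16 (adjusted p = 0.328). The highest was Spx, the counterpart of an SF3b subunit, at 0.12, -0.24, 0.12, -0.10, -0.11, 0.14 and 0.17, a mean of 0.01 ± 0.16. The largest spread among all 38 genes was that of Sf3b3, from -0.50 on array 1 to 0.53 on array 6 around a mean of 0.00 ± 0.35. The other 4, U2af38, U2af50, Sf3a1 and Sf3b1, had means between -0.08 and -0.03. U2af38 and U2af50, which work as 1 dimer, differed by 0.02 ± 0.11 (SD of 7 differences, U2af38 minus U2af50; exact two-sided sign-flip permutation test, p = 0.688, adjusted over 5 pairs of partners p = 0.688).

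Of the tri-snRNP and Prp19 complex, 3 of 5 listed genes were measured and none was called. Prp8, the large protein at the heart of the spliceosome's catalytic centre, had -0.10, -0.08, -0.04, 0.11, 0.04, 0.23 and 0.70, with array 7 far above the rest and a mean of 0.12 ± 0.28 (adjusted p = 0.528). Without array 7 the mean was 0.03. The gene crn (crooked neck), whose protein joins the Prp19 complex and which is known in flies for its part in glial and neural development, had -0.17, -0.17, -0.30, -0.09, -0.03, -0.09 and 0.27, a mean of -0.08 ± 0.18 (adjusted p = 0.563). Prp19, a ubiquitin ligase, averaged -0.08 ± 0.10. Prp3 and Prp31 had no clone of their own.

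SR proteins, which bind exons and recruit the spliceosome to them, also did not pass. SF2 was lowest of the 3 measured, with -0.07, -0.28, -0.21, -0.19, -0.19, 0.06 and 0.03, a mean of -0.12 ± 0.13 (adjusted p = 0.295). B52 was highest, with -0.08, -0.19, -0.10, -0.13, -0.06, 0.26 and 0.34, a mean of 0.01 ± 0.21 over its 3 clones, whose own means ran between -0.02 and 0.04. In both genes arrays 1 to 5 were below 0 and arrays 6 and 7 above it. The third, tra2, a partner of Tra in the splicing of the sex determination pathway, averaged -0.08 ± 0.12. The 2 other listed genes, x16 and Srp54, were not measured.

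The hnRNP group coats nascent transcripts, and all 4 of its measured genes had means below 0, none of them called. Hrb87F had -0.26, -0.31, -0.25, -0.22, -0.34, 0.05 and -0.21, a mean of -0.22 ± 0.13 (adjusted p = 0.0565; 95% confidence interval -0.34 to -0.09). Array 6 was the only one above 0. Its paralogue Hrb98DE had -0.20, -0.38, -0.18, -0.01, -0.13, 0.20 and 0.26, a mean of -0.06 ± 0.23 (adjusted p = 0.739). Hrb87F was below Hrb98DE on 6 of 7 arrays, by -0.16 ± 0.17 (exact sign-flip permutation test, p = 0.0625, adjusted over 5 pairs p = 0.156, n = 7). Hrb27C, an abundant hnRNP that also binds mRNA in the oocyte, was the highest of the group at -0.29, -0.16, 0.06, -0.10, -0.16, 0.25 and 0.23, a mean of -0.02 ± 0.21. The fourth, glo, a translational repressor of nanos in the oocyte, averaged -0.04 ± 0.26, and sqd was not measured.

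Among the other splicing regulators lay the only gene of the 38 called as risen. It was heph (hephaestus), which encodes the fly polypyrimidine tract binding protein, a repressor of exons that also acts in spermatogenesis and limits Notch signalling in the wing. Its values were 0.01, 0.41, 0.12, 0.76, 0.31, 0.69 and 0.40, all above 0, lowest on arrays 1 and 3 and highest on arrays 4 and 6. The mean was 0.39 ± 0.28 (95% confidence interval 0.18 to 0.59), 1.31-fold higher in lola mutant than in control embryos (adjusted p = 0.0415). The 2 clones of heph did not both pass when clones were tested one by one: LD03185 averaged 0.43 ± 0.30 (adjusted p = 0.0334 over 10227 clones) and SD22984 averaged 0.34 ± 0.34 (adjusted p = 0.106). They lay up to 0.683 apart on 1 array. In that fit 4 of the 46 clones of the 38 genes passed, 1 as risen and 3 as fallen, against 6.11% of all clones called, 3.59% as risen and 2.52% as fallen, and the same 4 genes had at least 1 clone that passed, against 6.04% of all genes.

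The other regulators measured were mub, a KH-domain protein found in the mushroom bodies, ps (pasilla), the fly counterpart of Nova, and nonA, which is needed for normal vision and courtship song. mub had -0.07, 0.22, 0.21, 0.37, 0.06, 0.06 and 0.00, a mean of 0.12 ± 0.15 (adjusted p = 0.319). ps had 0.06, 0.11, 0.25, 0.16, 0.08, -0.06 and 0.21, a mean of 0.12 ± 0.10 (adjusted p = 0.262). Both were above 0 on most arrays and neither passed. The 2 clones of ps moved apart over the arrays (Pearson's r = -0.36 over 7 arrays), whereas the 2 clones of nonA moved together (r = 0.89). nonA had 0.00, -0.17, 0.03, -0.21, -0.19, -0.08 and 0.15, a mean of -0.07 ± 0.13 (adjusted p = 0.588). Sxl and Psi were not measured.

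The m6A writer complex marks adenosines in mRNA by methylation, and in the fly it helps splice Sxl, the master gene of sex determination. Its 3 listed genes were measured and none was called. vir was highest, at -0.28, 0.02, -0.16, 0.08, 0.17, -0.04 and 0.51, a mean of 0.04 ± 0.26 (adjusted p = 0.852). nito was lowest, at -0.34, 0.09, -0.21, -0.17, 0.02, -0.18 and 0.45, a mean of -0.05 ± 0.26 (adjusted p = 0.837). Both were lowest on array 1 and highest on array 7. fl(2)d averaged 0.01 ± 0.12 and differed from vir by -0.03 ± 0.20 (exact sign-flip permutation test, p = 0.672, adjusted p = 0.688, n = 7).

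The exon junction complex, laid down where exons have been joined, gave the third gene called as fallen. This was tsu (tsunagi), which encodes the Y14 subunit and is known in flies for placing oskar mRNA in the oocyte. Its values were -0.08, -0.42, -0.36, -0.27, -0.35, -0.11 and -0.10, all below 0, deepest on arrays 2, 3 and 5. The mean was -0.24 ± 0.14 (95% confidence interval -0.37 to -0.11; adjusted p = 0.0477), 1.18-fold lower in lola mutant than in control embryos. Y14 binds Mago, whose gene mago was not measured. Hel25E, the fly UAP56 helicase of splicing and mRNA export, had -0.14, -0.26, -0.24, -0.20, -0.12, 0.11 and 0.18, a mean of -0.10 ± 0.17 (adjusted p = 0.489), and the helicase gene Rm62 was represented only by 2 clones shared with other genes.

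At the ends of the transcript, no gene was called. The cap binding complex is a dimer of Cbp20 and Cbp80. Cbp20 had 0.10, -0.40, -0.24, -0.27, -0.17, 0.11 and -0.09, a mean of -0.14 ± 0.19 (adjusted p = 0.331). Cbp80 had 0.09, -0.12, 0.03, 0.08, -0.03, 0.27 and 0.24, a mean of 0.08 ± 0.14 (adjusted p = 0.526). On 6 of 7 arrays Cbp20 was the lower partner, with a mean difference of -0.22 ± 0.12 (Cbp20 minus Cbp80, exact sign-flip permutation test, p = 0.0312, adjusted over 5 pairs p = 0.156, n = 7; the smallest p that 7 arrays allow is 0.0156).

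Cpsf73, the nuclease that cuts the transcript before the poly(A) tail is added, had 0.16, -0.30, 0.07, -0.20, -0.14, 0.08 and 0.09, a mean of -0.04 ± 0.18 (adjusted p = 0.845). Cpsf160, which helps recognise the polyadenylation signal, ran from -0.61 on array 1 to 0.39 on array 4, with 0.21, -0.15, 0.15, 0.20 and 0.09 on arrays 2, 3, 5, 6 and 7, and averaged 0.04 ± 0.33 (adjusted p = 0.896). The 2 subunits differed by -0.07 ± 0.47 (Cpsf73 minus Cpsf160, exact sign-flip permutation test, p = 0.688, adjusted p = 0.688, n = 7).

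For the genes that did not pass, the intervals bound the mean array ratio, which need not equal the change in RNA. The authors name compression of array ratios as possible, though they judged their qRT-PCR largely in keeping with the arrays. The means of these 34 genes lay between -0.27 and 0.12. The 95% confidence interval stayed within 1.3-fold of equal signal for 33 of all 38 genes, within 1.5-fold for 36 and within 2-fold for all 38. Outside the Sm core, 30 of 31 stayed within 1.3-fold, heph being the exception. By direction alone, SmB, SmD2, SmD3 and tsu were below 0 on all 7 arrays, against 4.5% of all genes, and heph was above 0 on all 7, against 4.97%. At an unadjusted p under 0.05, 8 of the 38 were lower and 1 higher, 9 in all, against 19.5% of all genes.

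**Figure D2:**
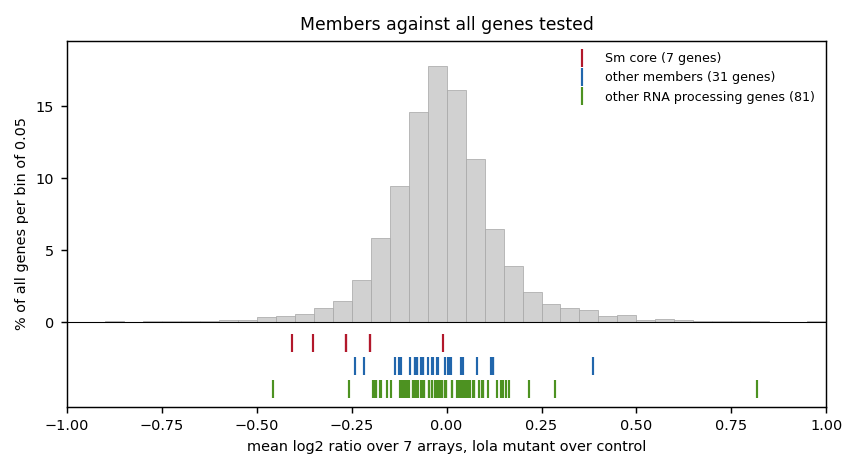
Mean log2 ratio over 7 arrays (horizontal axis) of all 7583 genes, as a histogram of the percentage of genes in bins 0.05 wide, with a tick for each gene of the Sm core (red), each other measured gene of the list (blue) and each of 81 other RNA processing genes (green). The axis ends at -1 and 1. The Sm ticks lie between -0.41 and -0.01, the blue ticks gather near their median of -0.04 with heph apart at 0.39, and the green tick farthest right is rig at 0.82.

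The 7 arrays did not repeat each other closely. Over all genes the correlation between 2 arrays ran from -0.286 to 0.824, and the median ratio of all genes was within 0.02 of 0 on each array. The correlations differed by dye orientation. Among the arrays with mutant RNA in Cy3 they ran from 0.427 to 0.824, and arrays 1 and 3, in Cy5, correlated at 0.739. Array 6, also in Cy5, stood at -0.058 with array 1 and -0.133 with array 3. Between opposite orientations they ran from -0.286 to 0.356. For the 31 genes outside the Sm core, the median on arrays 1 to 7 was -0.10, -0.17, -0.15, -0.17, -0.11, 0.11 and 0.17, with 22, 25, 21, 22, 23, 8 and 5 of the 31 below 0. On each of arrays 1 to 5 the larger number of these genes was below 0, and on arrays 6 and 7 the smaller number. The 81 other RNA processing genes had medians of the same signs, nearer 0: -0.05, -0.05, -0.09, -0.04, -0.05, 0.04 and 0.08. Of these 81, 57, 48, 59, 48, 51, 33 and 30 were below 0, so the pattern was not particular to the 31. Gene by gene the pattern was less uniform: 19 of the 31 were above 0 on both arrays 6 and 7, against 25% of all genes, and 7 of the 31 were also below 0 on all of arrays 1 to 5, against 2.11% of all genes. The median of the Sm core had the opposite sign to theirs on arrays 1, 6 and 7. On arrays 2 to 5 both medians were below 0, that of the Sm core the lower. Its medians were 0.09, -0.28, -0.29, -0.56, -0.30, -0.09 and -0.20, with 3, 6, 7, 7, 7, 6 and 7 of the 7 genes below 0. This contrast was seen in the data and was not tested.

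Markers of several other tissues of the embryo also differed between arrays, most of all those of muscle. Those of fat body and gut (5 of 7 listed) differed least among the sets, with means between -0.06 and 0.10. The mean of the muscle markers measured, 4 of 8 listed (up, Tm2, Mlc1 and Mlc2), was 0.58, 0.68, 1.05, 0.17, 0.55, -2.14 and -0.82 on arrays 1 to 7, and those of trachea (3 of 5) and of epidermis and cuticle (7 of 8) lay between -0.81 and -0.77 on array 6 and between -0.01 and 0.35 on arrays 1 to 5. On array 7 they stood close to 0, at -0.10 for trachea and -0.09 for epidermis and cuticle, and haemocyte markers stood at 0.34. Haemocyte markers averaged 0.26 ± 0.21 (SD over 7 arrays; 7 of 8 listed measured, 3 called as risen), glial markers -0.16 ± 0.09 (6 of 8, below 0 on every array, with 2 called as fallen) and neuronal markers -0.14 ± 0.13 (3 of 8, none called). Markers of maternal and early transcripts, 5 of 8 listed, had means of -0.26, -0.14, -0.34, -0.04, 0.01, 0.10 and 0.13. The part of these markers in the ratios of the splicing genes was not tested. With arrays 6 and 7 left out, a choice made after the marker values were seen, 5 of the 38 genes were called, all as fallen (SmB, SmD2, SmD3, Hrb87F and tsu), against 6.94% of all genes called in either direction in that fit, the median of the 38 was -0.14, and heph no longer passed at a mean of 0.32 (adjusted p = 0.130).

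**Figure D3:**
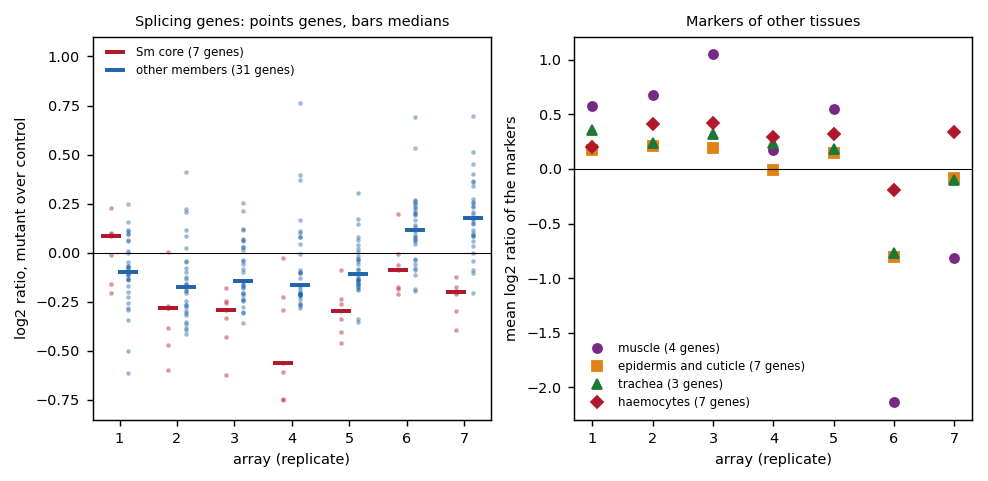
Left, log2 ratio of lola mutant over control on each array for the 7 genes of the Sm core (red) and the 31 other genes (blue), points being genes and bars medians. Right, mean log2 ratio of marker genes of muscle, epidermis and cuticle, trachea and haemocytes on the same arrays. The blue medians lie at or below -0.10 on arrays 1 to 5 and at 0.11 and 0.17 on arrays 6 and 7, the red medians are above 0 on array 1 only, and the muscle markers lie at -2.14 on array 6.

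The dye orientations were unequal in number, so the dye was looked at as a term of its own. None of the 38 genes passed for this term at an adjusted p under 0.05 (limma, smallest adjusted p = 0.113), against 12.9% of all genes. At an unadjusted p under 0.05 in that fit, 3 of the 38 passed, against 27.7% of all genes. The terms of the 38, Cy5 minus Cy3, ran from -0.40 to 0.32 and rest on 3 arrays against 4. In the 4 called genes the mean kept its sign in both orientations. With mutant RNA in Cy5 and then in Cy3, SmB averaged -0.33 and -0.46, SmD3 -0.22 and -0.45, tsu -0.18 and -0.28, and heph 0.27 and 0.47. The mean was farther from 0 with mutant RNA in Cy3 in each of the 4.

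The calls were sensitive to single arrays, and so was the share of all genes called. That share was 5.59% with 7 arrays. It was 1.79%, 3.67%, 1.86%, 2.12% and 4.05% without array 2, 3, 4, 5 and 7 in turn, and 6.86% without array 6. SmB lost its call without array 2, 3, 4 or 5 (adjusted p = 0.0825, 0.0586, 0.0724 and 0.0627), SmD3 and tsu each without array 2, 3, 4, 5 or 7, and heph without array 2, 4, 5, 6 or 7. The means kept their sign. Without 1 array, SmB lay between -0.45 and -0.35 and SmD3 between -0.41 and -0.28. In the same fits tsu lay between -0.27 and -0.21 and heph between 0.32 and 0.45. Without array 1, 7 of the 38 genes were called, the 4 above with SmD1, SmF and SmG, against 6.66% of all genes in that fit.

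Outside the list, 117 further genes of RNA processing were considered, and 81 of them were measured. They were called as risen in 2 cases and as fallen in 1, against the 3.24% and 2.35% of all genes, and their median was -0.02, the same as over all genes to that precision. At an unadjusted p under 0.05, 14 of the 81 (17.3%) differed, against 19.5% of all genes, 10 of them lower and 4 higher. On all 7 arrays 7 of the 81 (8.64%) were below 0, against 4.5% of all genes, and 2 (2.47%) above 0, against 4.97%.

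The change of largest size was in rig (rigor mortis), the fly counterpart of Gemin5, a protein of the complex that loads Sm proteins onto snRNAs, also known in flies as a cofactor of the ecdysone receptor. Its values were 0.39, 0.78, 0.19, 1.07, 0.65, 1.59 and 1.05, all above 0. The mean was 0.82 ± 0.47 (adjusted p = 0.0141), 1.76-fold higher in lola mutant than in control embryos, and it lost its call without array 4 (adjusted p = 0.0550).

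Gem2, which encodes another protein of the same complex, moved the other way. It had -0.15, -0.36, -0.25, -0.19, -0.32, -0.06 and -0.46, all below 0, with a mean of -0.26 ± 0.14 (adjusted p = 0.0345). Smn, the central subunit, averaged -0.07 ± 0.24 (adjusted p = 0.680) and did not pass. Among all 16 genes measured for snRNP assembly and the Integrator, which trims snRNA ends, rig and Gem2 were the 2 called, and the median was 0.02.

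The gene hrg (hiiragi), which encodes a poly(A) polymerase, was called as risen at 0.24, 0.31, 0.37, 0.25, 0.13, 0.05 and 0.18, a mean of 0.22 ± 0.11 (adjusted p = 0.0459). It lost its call without any 1 of arrays 1, 2, 3, 4, 5 and 7, and Gem2 without array 2, 3, 4, 5 or 7. The lowest mean belonged to LSm7, a subunit of the Sm-like ring of the U6 snRNP, at 0.27, -0.68, -0.10, -0.62, -0.58, -0.72 and -0.77, a mean of -0.46 ± 0.39 (adjusted p = 0.0667). It did not pass, with array 1 above 0, and without array 1 the adjusted p was 0.0106.

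Among the remaining groups hrg was the only gene called. The 7 further snRNP proteins had a median of -0.10 with all 7 means below 0, and the 13 genes of the exon junction complex and mRNA export had a median of -0.12 with 9 below 0. The medians of the tri-snRNP genes (14), the SR proteins and their kinases (6), the hnRNPs and regulators (10) and the cleavage and polyadenylation genes (11, hrg among them) lay between -0.04 and -0.01. Counted by clones, 2 further genes had a clone that passed as fallen, ncm (SD04745, mean -0.26, adjusted p = 0.0438) and Pabp2 (RE74211, mean -0.20, adjusted p = 0.0364), and the gene means of neither passed.

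**Figure D4:**
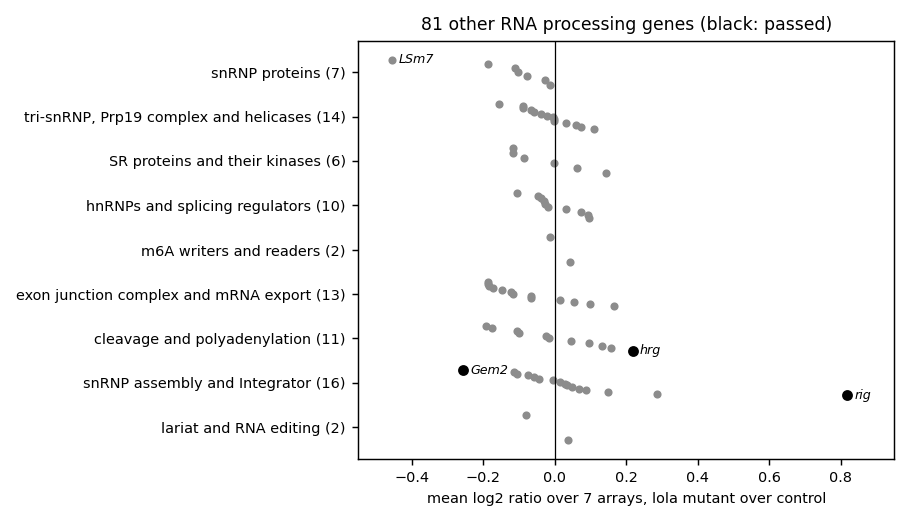
Mean log2 ratio over 7 arrays, lola mutant over control (horizontal axis), of the 81 other RNA processing genes by role, with the number of genes in each role. Black points passed. rig at 0.82 and hrg at 0.22 lie right of 0, Gem2 at -0.26 left of it, and the lowest point, LSm7 at -0.46, did not pass.

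The lola transcript itself is no check of the labels, because the allele stops translation and need not remove the RNA. The mean of its 4 clones was 0.28 ± 0.16 (adjusted p = 0.0344) and lay above 0 on all 7 arrays. In the fit of single clones GM09276 (mean 0.65) and GH08307 (0.34) passed, while LD28033 (0.10) and LD17006 (0.01), which were below 0 on 1 and on 3 arrays, did not.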

How the data were processed

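Total RNA of lola mutant and control embryos was compared on 7 two-colour spotted cDNA arrays of the Drosophila Gene Collection. The authors extracted intensities with GenePix, made no background correction, normalised by print-tip loess within and by scale between arrays in limma. The version of limma they ran is not given in the sources used here. The log2 ratios they deposited fill a column for each array, with 0 missing values in 10376 features. Spot intensities were not used here, which leaves the brightness behind a ratio unknown, and precision is limited by having 7 arrays. Loess assumes that most genes do not change. All 597 clones of the published list of changed clones had the opposite sign as deposited, so every sign was turned.

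After 149 control spots were left out, 10227 clones remained, of which 8598 had 1 gene symbol, 517 several and 1112 none. By gene ID, 8454 of the 8598 were found in a RefSeq table (Release 6 plus ISO1 MT), used for names only. From the gene means, 55 clones were left out that the published list of changed clones assigned to retrotransposons or to several or chimeric sequences. Of these, 19 had 1 gene symbol. Clones outside that list were not screened in this way. The remaining 8579 clones of 1 gene were averaged to 7583 genes. With the left-out clones kept, 5.8% of all genes were called, against 5.59%. Of the 11 listed genes with no value, Prp3 and Rm62 had clones of several genes only. Gene means were tested in R 4.3.3 with limma 3.58.1 (functions lmFit and eBayes), two-sided, after a check on simulated data, with Benjamini-Hochberg adjustment. The array, an independently collected pair, was the replicate. Differences between 5 partner pairs were tested by exact sign flips over arrays. The main fit, the sign flips and the simulated data treated the arrays as independent, without a dye term. The correlations by dye orientation given above were thus not allowed for in them. Values on every array are given for called genes, the 5 highest and 5 lowest, and the extremes of each role, and from the further genes for those called and the extremes; SmD2, SmG and others outside this rule were added after their values were seen. Members, lists and tests were chosen with earlier results of these data known.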

Additional observations from a re-analysis of the deposited data

Results flagged for a closer look

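Of 42 genes examined for an array far from the other 6 (the 38 of the list with rig, Gem2, hrg and LSm7), 2 were picked out, about what chance gives at 1 in 20. Prp8 stood at 0.698 on array 7, while its other arrays lay between -0.10 and 0.23. Hrb87F stood at 0.0468 on array 6, while its other arrays lay between -0.34 and -0.21. Without array 6, Hrb87F averaged -0.26 and passed (limma, adjusted p = 0.0184).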

How the results depend on the processing

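The 38 genes gave 4 calls (5.59% of all genes called), and leaving out 1 array at a time gave 0 to 7. In those left-out fits 1.79% to 6.86% of all genes were called. The 38 gave 0 calls without array 2, 4 or 5, where 1.79%, 1.86% and 2.12% of all genes were called. With the dye orientation as a term 7 were called (8.45% of all genes), with array weights 11 (21.4%), with mutant RNA in Cy3 only 10 (26.4%), with mutant RNA in Cy5 only 0 (0% of all genes), and with a minimum fold of 1.1 in limma's treat 0 (1.23%). The 4 calls were all among the 7, the 11 and the 10. Centring each array gave 3, with tsu at an adjusted p of 0.0515, and robust variances, medians over clones, a gene counted by any clone, and retrotransposon clones kept each gave 4. Counted over clones, 4 passed, and the numbers were 0 to 7 without 1 array, 7 (8.53% of all clones) with the dye term, 14 (20.1%) with weights, 11 (24.5%) with Cy3 only, 0 (0%) with Cy5 only and 0 (1.8%) with the minimum fold. Among the left-out fits, 0 passed without array 2, 4 or 5, with 2.41%, 2.71% and 2.82% of all clones called. Of the 81 further genes 3 were called: 0 to 3 without 1 array, 7 with the dye term, 19 with weights, 13 with Cy3 only, 0 with Cy5 only, 1 with the minimum fold, 5 counted by any clone and 6 without arrays 6 and 7, a choice made after the data were seen. The shares of all genes called in the fits of the 81 are those given for the 38, here and above. The dye term, at 0 of the 38, gave 1 without array 6 (Cpsf160) and 5 with weights. The cause of these shifts was not tested. Fewer arrays were fitted in the single-dye and left-out fits. The median of the 38 stayed between -0.10 and -0.03 without 1 array and was below 0 under every alternative. Of 714 values of single genes recomputed, 0 changed sign while called, 46 lost and 27 gained a call. The pairing of samples was part of every test, because each array sets 1 mutant against 1 control sample and yields 1 ratio.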
